A study of Rattus norvegicus with 10 samples.

Results

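The 9 genes described here encode the subunits of 2 families of ionotropic glutamate receptor, 4 of AMPA receptors (Gria1 to Gria4) and 5 of kainate receptors (Grik1 to Grik5). They were taken by name, as every gene of these families, from the 16941 genes tested on the arrays. The samples were the PFC of 10 adult male Sprague–Dawley rats, with 1 Affymetrix Rat Gene 1.0 ST array per rat. The 5 FS rats received a single session of inescapable footshock (0.8 mA over 40 min, during which shock was on for 20 min), went back to their home cages and were killed 24 h after its start, whereas the 5 controls were left undisturbed in theirs. The PFC was taken whole, so its subregions were not separated, and fewer cells of a type cannot be told apart from less RNA per cell in any value below.

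AMPA receptors carry most of the fast excitatory current at synapses between cortical neurons, and the subunits they are built from set how much calcium they pass and how they are moved to and from the synapse. Kainate receptors are found on both sides of the synapse, where they modulate the release of transmitter and add a slow current. In kainate receptors, Grik1, Grik2 and Grik3 encode subunits that can form channels on their own, whereas Grik4 and Grik5 encode subunits with a higher affinity for kainate that need a partner of the first kind. Acute FS is known to raise glutamate release in the PFC, and the comparison of FS rats with controls asks whether the transcripts of the receptors that glutamate opens differed 1 day later.

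All levels are log2 values normalized with RMA, so a difference of 1 is a doubling of array signal, and each difference is FS minus control. The probes of different genes bind their targets differently, so a level is compared between rats and never between genes. Each of the 9 genes passed the filter of a mean above 4, with the lowest mean at 8.00 (Grik1). Gria3 has 2 probe sets with its symbol alone and is represented by the one with the higher mean, and every other subunit has 1. The arrays correlated with each other between 0.994 and 0.997.

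In limma, with p-values adjusted over all 18304 probe sets by the Benjamini–Hochberg method, 0 of the 9 subunits were at or under 0.05, as were 0% of all probe sets. At an unadjusted p under 0.05 there were 0 subunits as well, against 9.84% of all probe sets (5.75% with a higher and 4.09% with a lower mean in FS rats). The values of FS rats and controls overlapped in all 9, and the groups did not overlap in 1.94% of all probe sets. An exact permutation test of each subunit over the 252 ways to choose 5 of 10 rats, two-sided, gave p-values from 0.0714 (Grik2) to 0.833 (Grik1), where 0.00794 is the smallest it can give.

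**Figure D1:**
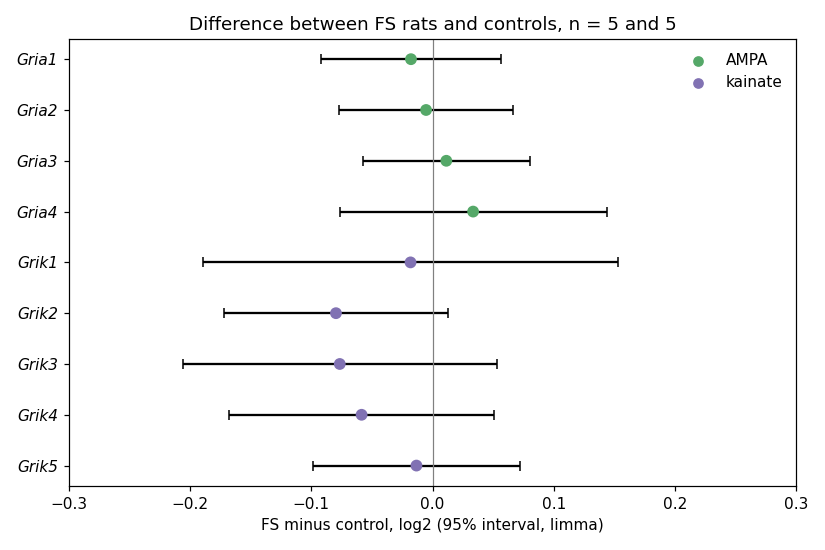
The difference between FS rats and controls (x axis, log2) for the 9 subunits, each with its 95% interval from limma, n = 5 rats per group. All 9 intervals include 0, and the 5 kainate subunits lie on the negative side.

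Gria1 encodes GluA1, the subunit whose delivery to the synapse accompanies potentiation. Given in the order of the replicate numbers, here and for the other subunits, its level was 11.55, 11.59, 11.64, 11.54 and 11.60 in controls. It was 11.61, 11.55, 11.54, 11.55 and 11.59 in FS rats. Both groups covered nearly the same narrow range. The difference was -0.018 (standard error 0.034, 95% interval -0.092 to 0.057, adjusted p = 0.887 in limma). It was -0.0040 without control replicate 3 and -0.029 without FS replicate 1.

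Gria2 encodes GluA2, which in its edited form makes AMPA receptors nearly impermeable to calcium. Its level was 12.24, 12.25, 12.30, 12.23 and 12.26 in controls and 12.30, 12.22, 12.23, 12.25 and 12.24 in FS rats. The highest control and the highest FS rat were at the same level to the second decimal. The difference was the smallest of the 9 subunits, -0.0053 (standard error 0.033, 95% interval -0.077 to 0.066, adjusted p = 0.972 in limma). With each array centred on its median, its sign turned (0.0049), as it did without control replicate 3 (0.0056) and without FS replicate 2 (0.0032), while the value without FS replicate 1 was -0.018.

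Gria3 encodes GluA3, which pairs with GluA2 in cortical neurons. Its level was 11.76, 11.75, 11.81, 11.78 and 11.80 in controls and 11.81, 11.75, 11.80, 11.80 and 11.79 in FS rats. FS replicate 2 stood below the other 4 FS rats, whose SD was 0.0075. The difference was 0.011 (standard error 0.032, 95% interval -0.057 to 0.080, adjusted p = 0.925 in limma). It was 0.0037 without control replicate 2 and 0.021 without FS replicate 2. The second probe set of Gria3, with a mean of 8.08, differed by -0.022 (standard error 0.084, adjusted p = 0.951 in limma), so the mean of both probe sets had the opposite sign (-0.0053). Across all rats, group means kept, Pearson's r of the second probe set with the first was -0.29, so they did not rise and fall together. All relations of Gria3 below use the first.

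Gria4 encodes GluA4, whose receptors close fast and which in the cortex is found above all in fast-spiking interneurons. Its level was 10.26, 10.12, 10.11, 10.20 and 10.01 in controls and 10.26, 10.14, 10.13, 10.22 and 10.12 in FS rats. The lowest rat was a control and the highest values of the groups were equal to the second decimal. The difference was 0.033 (standard error 0.051, 95% interval -0.077 to 0.14, adjusted p = 0.853 in limma). It was 0.0012 without control replicate 5 and 0.063 without control replicate 1.

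Over the AMPA subunits, the 95% intervals reached from 6.19% less to 10.5% more array signal in FS rats. Gria1, Gria2 and Gria3 were among the genes that varied least between rats. Their SD among rats of a group, 0.035, 0.030 and 0.024, lay at the percentiles 2.87, 1.36 and 0.497 of all probe sets, where the median was 0.084. The mean levels of these genes were 11.58, 12.25 and 11.78, and their spread was not compared with that of genes at a similar level. Gria4 varied more (0.081, percentile 46.8). The level of Gria2 against the mean of Gria1, Gria3 and Gria4, taken within each rat, differed between the groups by -0.014, with an SD of 0.034 in controls and 0.0064 in FS rats. This contrast is given as a description without a test.

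**Figure D2:**
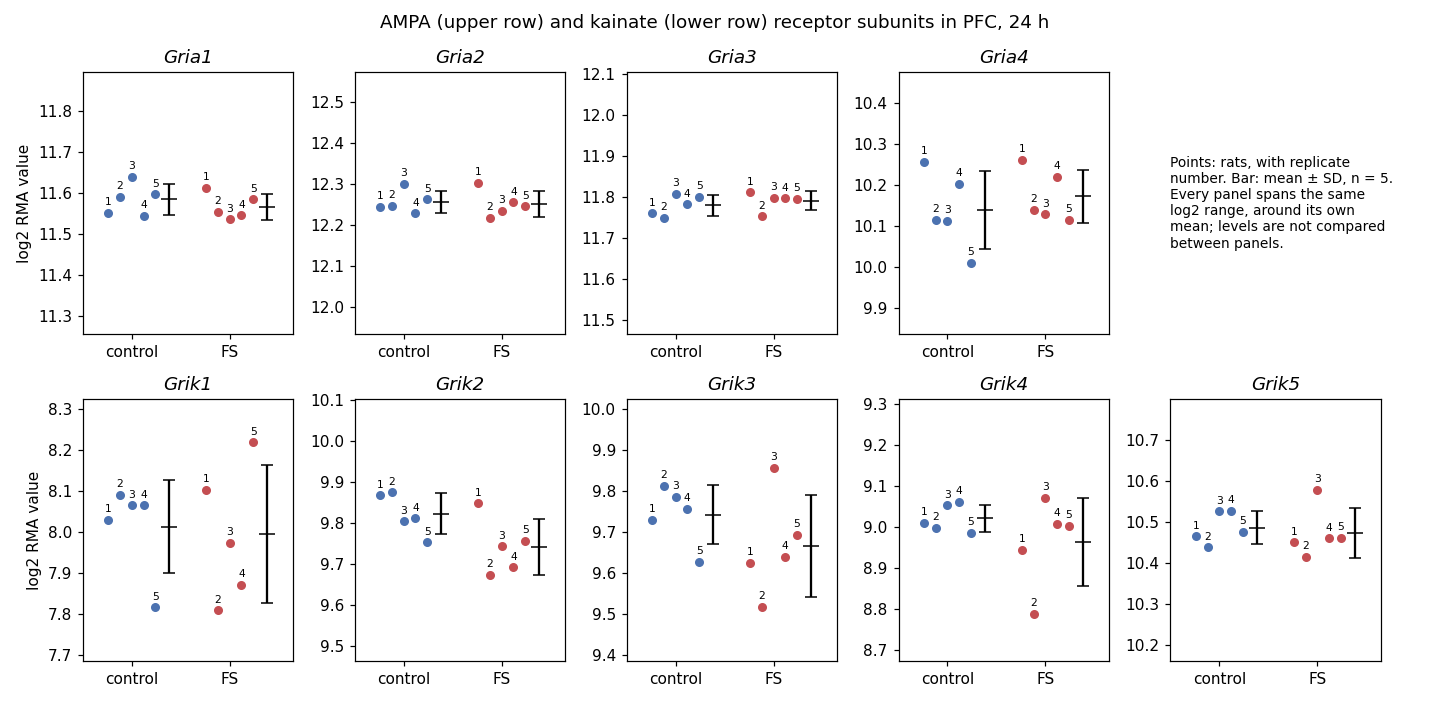
Log2 RMA values (y axis) of the 9 subunits in the 5 controls and 5 FS rats, each point a rat with its replicate number, beside the mean and SD of the group. All panels span the same range, so the narrow spread of Gria1, Gria2 and Gria3 and the wide one of Grik1 can be read directly, and FS replicate 2 is the lowest FS rat in each panel of the lower row.

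All 5 kainate subunits had a lower mean in FS rats, and none of the differences passed a test. Over all genes tested, 49.5% had a negative difference, and over the 7845 genes with a mean level above 8 the share was 63.8%. The median of the 5 differences was -0.058, against 0.00070 over all genes and -0.019 over the genes above 8. Their 95% intervals reached from 13.3% less to 11.2% more array signal.

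Grik1 encodes GluK1, which in the forebrain is found mainly in GABAergic interneurons. Its level was 8.03, 8.09, 8.06, 8.06 and 7.82 in controls and 8.10, 7.81, 7.97, 7.87 and 8.22 in FS rats. The FS rats included both the highest and the lowest of the 10 values, and control replicate 5 lay far below the other controls. The difference was -0.018 (standard error 0.079, 95% interval -0.19 to 0.15, adjusted p = 0.957 in limma). It turned positive without FS replicate 2 (0.028), FS replicate 4 (0.013) or control replicate 2 (0.0012) and was -0.074 without FS replicate 5. Its SD among rats of a group (0.14, percentile 89.5) was the widest of the 9 subunits.

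Grik2 encodes GluK2, the main channel-forming kainate subunit of principal neurons. Its level was 9.87, 9.87, 9.80, 9.81 and 9.75 in controls and 9.85, 9.67, 9.74, 9.69 and 9.76 in FS rats. Of the FS rats, 3 lay below every control, while FS replicate 1 lay above 3 controls. The means were 9.82 ± 0.050 (SD, n = 5) in controls and 9.74 ± 0.068 (SD, n = 5) in FS rats. The difference of -0.080 was the largest among the 9 subunits (standard error 0.042, 95% interval -0.17 to 0.012, unadjusted p = 0.0839 and adjusted p = 0.548 in limma). It stayed between -0.11 and -0.062 when each rat was left out in turn, with an unadjusted p of 0.0241 without FS replicate 1 and 0.0460 without control replicate 5 and an adjusted p of 0.346 or more in limma. With quantile normalization of the arrays, the difference was -0.057.

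Grik3 encodes GluK3, a subunit that needs high concentrations of glutamate. Its level was 9.73, 9.81, 9.79, 9.76 and 9.63 in controls and 9.63, 9.52, 9.86, 9.64 and 9.69 in FS rats. FS replicate 3 held the highest and FS replicate 2 the lowest of the 10 values. The difference was -0.076 (standard error 0.059, 95% interval -0.21 to 0.053, adjusted p = 0.685 in limma). It was -0.039 without FS replicate 2 and -0.12 without FS replicate 3, where the unadjusted p in limma was 0.0302 and the adjusted p 0.492.

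The promoters of Grik2 and Grik3, the 2 subunits with the largest differences, are shown as RefSeq gives them for the assembly GRCr8, from 250 bases before to 50 after the annotated start. Capitals mark the motifs searched on both strands, which were TGACG, the half-site of the cAMP response element, the palindrome TGACGTCA, which is that element in full and contains the half-site, AGAACA, the half-site of the glucocorticoid response element, and GGGCGG, the GC box bound by Sp1. The first line lies on the minus strand of chr20:54415234-54415533 and the second on the plus strand of chr5:143052192-143052491.
Grik2: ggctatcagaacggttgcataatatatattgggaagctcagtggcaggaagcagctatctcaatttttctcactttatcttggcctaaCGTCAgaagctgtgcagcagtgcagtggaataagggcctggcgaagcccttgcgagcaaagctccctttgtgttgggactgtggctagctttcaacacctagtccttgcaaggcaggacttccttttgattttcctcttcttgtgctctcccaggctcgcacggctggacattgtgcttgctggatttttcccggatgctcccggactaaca
Grik3: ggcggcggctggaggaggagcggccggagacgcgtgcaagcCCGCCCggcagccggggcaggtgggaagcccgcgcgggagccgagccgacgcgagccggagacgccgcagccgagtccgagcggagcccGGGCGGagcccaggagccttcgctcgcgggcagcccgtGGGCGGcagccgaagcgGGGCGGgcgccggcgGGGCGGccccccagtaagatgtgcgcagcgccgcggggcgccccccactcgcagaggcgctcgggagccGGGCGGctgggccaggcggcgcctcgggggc

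Windows of this kind were matched for 6 of the 9 subunits (Gria4 and Grik1 to Grik5). The Grik2 window holds 1 half-site TGACG, on the reverse strand 162 bases before the start, and none of the other 5 holds it, while 21.2% of all 33469 promoters do. The Grik3 window holds the GC box 6 times and is made up of G and C to 82.3%, against a median of 51.7% over all promoters. A GC box also lies in the Grik5 window, and in 33.1% of all promoters. Neither TGACGTCA (1.83% of all promoters) nor AGAACA (20.7%) is in any of the 6 windows. These matches describe the letters of the windows alone.

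Grik4 encodes GluK4, one of the high-affinity subunits. Its level was 9.011, 8.998, 9.053, 9.062 and 8.987 in controls and 8.945, 8.788, 9.071, 9.009 and 9.004 in FS rats. Apart from FS replicate 2 and, by less, FS replicate 1, the FS rats lay within or just above the range of the controls. The difference was -0.058 (standard error 0.050, 95% interval -0.17 to 0.051, adjusted p = 0.722 in limma), and it was -0.015 without FS replicate 2 and -0.085 without FS replicate 3. The SD in FS rats, 0.11, was 0.052 without FS replicate 2 and 0.033 in controls.

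Grik5 encodes GluK5, the high-affinity subunit most widely expressed in the brain. Its level was 10.46, 10.44, 10.53, 10.53 and 10.47 in controls and 10.45, 10.41, 10.58, 10.46 and 10.46 in FS rats. FS replicate 3 stood above all other rats, and the other 4 FS rats lay in the lower part of the range of the controls or below it. The difference was -0.013 (standard error 0.039, 95% interval -0.099 to 0.072, adjusted p = 0.931 in limma), and 0.0013 without FS replicate 2 and -0.039 without FS replicate 3.

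The kainate subunits were lowest together in single rats. FS replicate 2 was the lowest FS rat in 5 of 5 kainate and in 2 of 4 AMPA subunits, and control replicate 5 the lowest control in 4 of 5 kainate and 1 of 4 AMPA subunits. Over all genes tested, FS replicate 2 was the lowest FS rat in 25.9% and control replicate 5 the lowest control in 26.9%. Without FS replicate 2, 3 of the 5 kainate subunits had a negative difference instead of 5, and 4 of all 9 instead of 7. Without control replicate 5, the differences of Grik2 and Grik3 were -0.097 and -0.11.

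**Figure D3:**
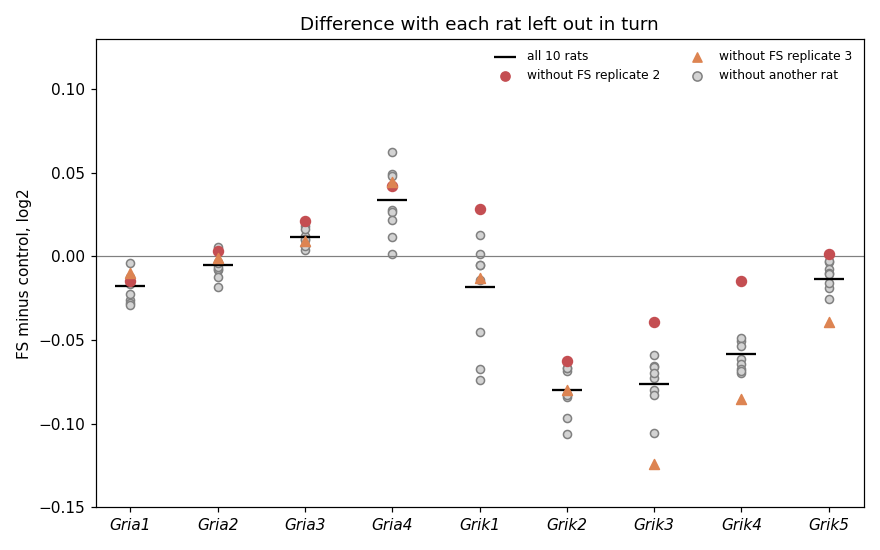
The difference between FS rats and controls (y axis, log2) for each subunit over all 10 rats (black dashes) and with each rat left out in turn (points). Leaving out FS replicate 2 gives the highest value for every kainate subunit, from -0.062 for Grik2 to 0.028 for Grik1.

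Marker lists of other cells moved with these rats. In FS replicate 2, the mean of the choroid plexus and ependymal markers (6 of 8 tested) was 2.11 above its mean over the rats, and that of the meningeal fibroblast markers (7 of 7 tested) 0.73 above it. The mean level of the choroid plexus list ran from 6.67 to 9.17 in FS rats and from 6.63 to 6.98 in controls. That of the meningeal list ran from 7.86 to 8.99 in FS rats and from 8.18 to 8.44 in controls. With the choroid plexus mean as a covariate in limma, an alternative chosen after seeing the data, 3 of 5 kainate subunits had a negative difference. The other 9 rats lay between -0.43 and 0.23 in this list, so that fit largely repeats the omission of FS replicate 2, and the part of such tissue in the differences was not tested.

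In control replicate 5, the means of the excitatory neuron markers (8 of 10 tested) and of the interneuron markers (10 of 10 tested) were 0.13 and 0.11 below their means over the rats, the lowest of the 10 rats in both lists. It was also the lowest of the 10 rats in striatal medium spiny neuron markers (a mean of -0.66 relative to all rats) and the highest control in meningeal (0.18 above) and microglial markers (0.12 above, 9 of 9 tested). The mean levels of these lists overlapped between the groups, at 10.39 to 10.56 in controls and 10.46 to 10.59 in FS rats for excitatory neurons and at 9.32 to 9.49 and 9.35 to 9.52 for interneurons. Among FS rats, FS replicate 2 was the lowest in excitatory neuron markers (-0.056 relative to all rats). In interneuron markers it was at -0.00022, and FS replicate 4 was the lowest (-0.075). The markers of striatal medium spiny neurons (8 of 10 tested) spread widest among controls, at 7.72 to 8.95, with 7.73 to 8.63 in FS rats, so the labelled PFC tissue held varying levels of them. With their mean as a covariate, also chosen after seeing the data, 0 subunits were at or under an adjusted p of 0.05 in limma, and 0 under an unadjusted p of 0.05.

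**Figure D4:**
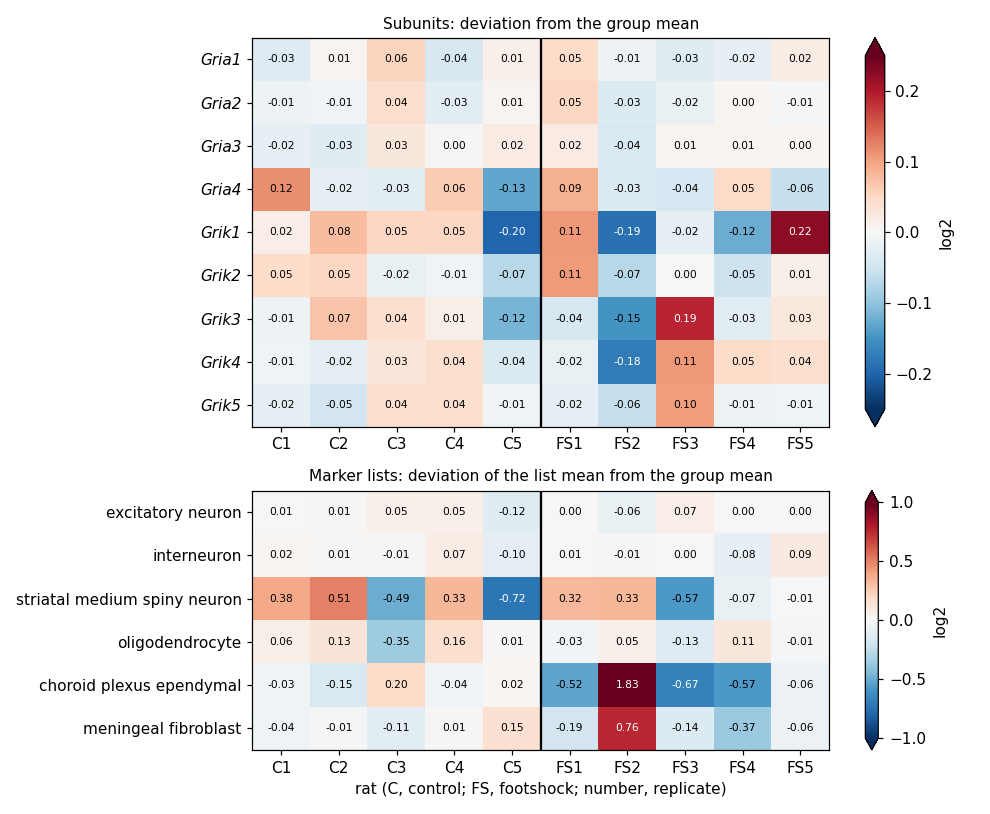
Deviation of each rat from the mean of its group (log2, printed in each cell and coloured on a scale of its own per panel) for the 9 subunits and for the means of 6 marker lists. FS replicate 2 is negative in all 9 subunits and at 1.83 for the choroid plexus and ependymal list, and control replicate 5 is at -0.20 for Grik1 and -0.12 for Grik3.

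To see whether subunits varied together, their values were correlated over the 10 rats after the group means were removed, with exact permutation within groups (14400 arrangements). Of the 36 pairs, 28 had a positive Pearson's r, 5 had an unadjusted p under 0.05 and 0 passed after adjustment over the pairs. The highest was that of Gria1 with Gria2 (r = 0.84, exact permutation p = 0.00528, adjusted p = 0.190, and rho = 0.77, exact permutation p = 0.0163, adjusted p = 0.196). It was 0.49 without control replicate 3 and FS replicate 1, so much of it rests on them. In each pair, the 2 rats left out were those farthest from the median level of the first-named subunit. Among kainate subunits the highest was that of Grik3 with Grik4 (r = 0.80, exact permutation p = 0.0314, adjusted p = 0.336, and rho = 0.59, exact permutation p = 0.101, adjusted p = 0.643), and r was 0.47 without FS replicates 2 and 3.

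The median r was 0.48 over the 10 kainate pairs, 0.29 over the 6 AMPA pairs and 0.16 over the 20 pairs of an AMPA with a kainate subunit. Without the 2 rats farthest in the first-named subunit of each pair, these medians were -0.027, -0.13 and -0.12. The other pairs with an unadjusted p under 0.05 were Gria2 with Gria3 (r = 0.71, exact permutation p = 0.0385, adjusted p = 0.336, rho = 0.79, exact permutation p = 0.0150, adjusted p = 0.196), Grik1 with Grik2 and Grik4 with Grik5. For Gria2 with Gria3, r was 0.59 without control replicate 3 and FS replicate 1. Grik1 with Grik2 (r = 0.74, exact permutation p = 0.0289, adjusted p = 0.336, rho = 0.79, exact permutation p = 0.0163, adjusted p = 0.196) was at r = 0.51 without control replicate 5 and FS replicate 2. Grik4 with Grik5, the high-affinity subunits, changed little (r = 0.77, exact permutation p = 0.0466, adjusted p = 0.336, and r = 0.76 without FS replicates 2 and 3, with rho = 0.66, exact permutation p = 0.0494, adjusted p = 0.445).

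Of the 90 relations of a subunit with the mean of a marker list, 4 had an unadjusted p under 0.05 and 0 passed after adjustment. Grik3 and Grik4 were higher in rats with higher excitatory neuron markers (r = 0.83, exact permutation p = 0.00431, rho = 0.79, p = 0.0139, for Grik3 and r = 0.68, exact permutation p = 0.00285, rho = 0.59, p = 0.0851, for Grik4, adjusted p = 0.194 for both r and 0.496 for both rho). Without control replicate 5 and FS replicate 3, r was 0.69 and 0.90. These fits kept FS replicate 2, the FS rat farthest below its group mean in the list (-0.063), in Grik3 (-0.15) and in Grik4 (-0.18). The relations without that rat were not computed. In these relations, the 2 rats left out were those farthest from the median of the marker list. Grik1 was higher in rats with higher interneuron markers (r = 0.80, exact permutation p = 0.0121, adjusted p = 0.363, and rho = 0.76, exact permutation p = 0.0187, adjusted p = 0.496), with r = 0.37 without control replicate 5 and FS replicate 5. The remaining one was that of Gria2 with the astrocyte markers (r = -0.67, exact permutation p = 0.0357, adjusted p = 0.554, and rho = -0.62, exact permutation p = 0.0967, adjusted p = 0.496), at -0.34 without FS replicates 1 and 4. The lowest r was that of Grik4 with the choroid plexus and ependymal markers (r = -0.85, exact permutation p = 0.0900, adjusted p = 0.560, and rho = -0.65, exact permutation p = 0.0980, adjusted p = 0.496). It was -0.058 without FS replicates 2 and 5. Of these, FS replicate 2 lay far from its group mean in both (-0.18 for Grik4 and 1.83 for the list), whereas FS replicate 5 lay closer (0.041 and -0.057). All these values come from the same 10 arrays, so differences in dissection and array quality are shared by both sides of each relation.

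Partner genes of the receptors were taken from lists of 58 genes, of which 54 were tested. None reached an adjusted p of 0.05 in limma (0 of 54). At an unadjusted p under 0.05, 3 had a lower and 1 a higher mean in FS rats, beside the background of 9.84% of all probe sets. A negative difference was found in 40 of the 54, with a median of -0.031, beside 49.5% of all genes and 63.8% of those with a level above 8, under which 5 of the 54 lay.

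Among the auxiliary proteins of AMPA receptors, which set their gating and their number at the synapse, 10 of 17 had a negative difference. Cacng4, a transmembrane AMPA receptor regulatory protein, had the lowest moderated t. Its level lay between 9.26 and 9.48 in controls and between 9.20 and 9.27 in FS rats, so the groups overlapped only at the edge. The difference was -0.12 (standard error 0.042, unadjusted p = 0.0148, adjusted p = 0.426 in limma). Olfm3, an olfactomedin found in AMPA receptor complexes, lay between 9.93 and 10.40 in controls and between 10.34 and 10.56 in FS rats. Its difference was 0.18 (standard error 0.082, unadjusted p = 0.0474, adjusted p = 0.505 in limma), and 0.095 without control replicate 5.

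Among the pentraxins and cerebellins, proteins that gather receptors at the synapse, 4 of 6 had a negative difference. Nptx2, a pentraxin induced by neuronal activity that clusters AMPA receptors, lay between 9.71 and 10.01 in controls and between 9.595 and 9.777 in FS rats. Its difference was -0.17 (standard error 0.061, unadjusted p = 0.0180, adjusted p = 0.436 in limma). It was -0.12 without control replicate 5, the highest control, and -0.20 without control replicate 2. The highest moderated t of this list was that of Cbln2 (0.10, adjusted p = 0.657 in limma), whose difference was 0.044 without control replicate 5.

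Of the genes that anchor and move AMPA receptors, 15 of 18 had a negative difference, with a median of -0.031. Grip1, a PDZ protein that binds the tail of GluA2, was at 8.43 ± 0.037 (SD, n = 5) in controls and 8.32 ± 0.079 (SD, n = 5) in FS rats. The difference was -0.11 (standard error 0.043, unadjusted p = 0.0248, adjusted p = 0.450 in limma). Its exact permutation p was 0.0556, against 0.0159 for Cacng4, 0.0317 for Olfm3 and 0.0397 for Nptx2. Rab11a, a GTPase of recycling endosomes, had the highest moderated t (0.060, adjusted p = 0.568 in limma).

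The smaller lists gave no unadjusted p under 0.05. All 4 auxiliary genes of kainate receptors had a negative difference, from -0.015 for C1ql2, a secreted ligand of kainate receptors, to -0.044 for Neto2, which slows their gating. The value of Neto2 was -0.080 without control replicate 3 and -0.023 without control replicate 1, and that of C1ql2 turned positive without control replicate 2 (0.014), FS replicate 3 (0.012) or FS replicate 5 (0.0068). A negative difference was also found in all 3 genes of the adenosine deaminase family, to which the editing enzymes of glutamate receptor transcripts belong, from -0.031 for Adar to -0.095 for Adarb2 (adjusted p = 0.552 in limma), with Adar at -0.013 without FS replicate 5. The probe sets cover whole transcripts and do not separate edited from unedited copies or flip from flop exons. In the biogenesis list, 4 of 5 had a negative difference, with Sacm1l (-0.053) and Porcn (0.030) at its ends. Sacm1l was at -0.083 without FS replicate 2, and Porcn turned negative without control replicate 1 (-0.013) or FS replicate 3 (-0.016). Grid1, a delta receptor that does not open in response to glutamate, differed by 0.013, with 0.0016 without control replicate 2 and 0.040 without control replicate 4.

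**Figure D5:**
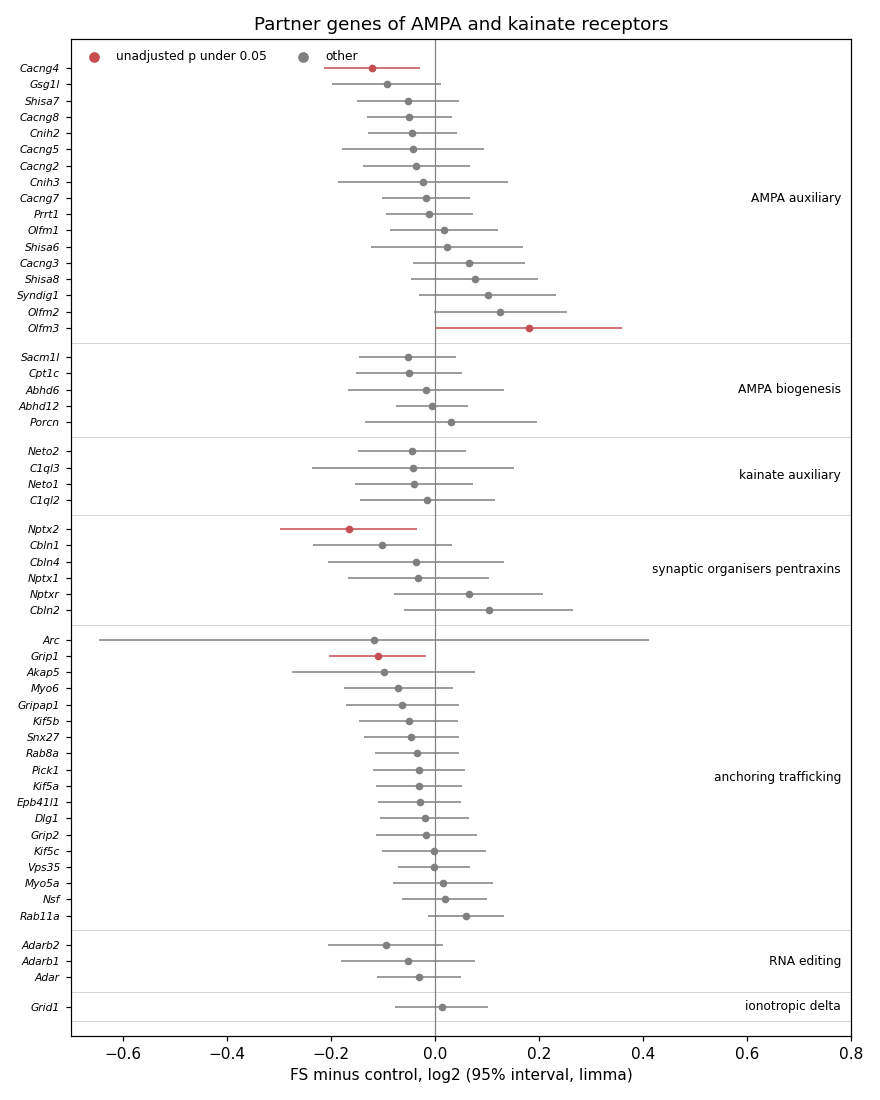
The difference between FS rats and controls (x axis, log2) for the 54 partner genes tested, each with its 95% interval from limma, n = 5 rats per group, by list. Of the intervals, 4 exclude 0 (Cacng4, Nptx2 and Grip1 on the negative side, Olfm3 on the positive), and Arc, an immediate early gene, has the widest.

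The genes whose values followed those of a subunit most closely over the 10 rats, group means removed, were searched among 16940 genes. Gria1 was closest to Snx29 (r = 0.97) and Serinc1 (r = 0.90), Gria2 to Maoa and Or4d2b (r = 0.90 for both), Gria3 to Prrc1 and Ppm1d (r = 0.94 for both) and Gria4 to Cdk11b (r = 0.96) and Rps17l2 (r = 0.95). Grik1 was closest to Shprh and Dnaja4 (r = 0.95 for both), Grik2 to Wdr44 (r = 0.96) and Ddt (r = 0.94) and Grik3 to Ankh (r = 0.98) and Copz1 (r = 0.97). Grik4 was closest to Gpr37l1 (r = 0.97) and Snapc2 (r = 0.96), and Grik5 to Ripor1 and Srebf2 (r = 0.97 for both). Spearman's rho ran from 0.72 to 0.95. These genes were picked as the highest of many, over few rats, so their r is a description without a test.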

How the data were processed

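Total PFC RNA of 10 rats (5 FS, 5 control), 250 ng each, was amplified and labelled, and the product was hybridised to 1 array per rat. Array files were imported by the authors in oligo 1.58.0. RMA then gave the deposited log2 values, with 1 value for each probe set and array. As to a genome build, none is given in the sources used here. Per the labels, groups and replicate numbers are those of the sample titles.

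Names come from the annotation of the platform and were used only for probe sets with exactly 1 symbol, of which the 18304 with a mean above 4 were tested. Where a gene had several, that of the highest mean stands for it. The groups were compared in limma 3.58.1 (R 4.3.3) across all probe sets, with Benjamini–Hochberg adjusted p-values. The functions were tested on simulated data. Alternatives changed the filter, scaling, weights, prior, probe sets, block, test and rats. The replicate numbers were not used as pairs.

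All 9 subunits are named, as are, of each partner list, the genes with the highest and lowest moderated t and those with an unadjusted p under 0.05, and the 2 genes closest to each subunit. The members and all lists were chosen with earlier results of these data known. Further lists of markers (oligodendrocytes, their precursors, astrocytes, microglia, endothelial cells and pericytes) entered the relations, and differed between the groups by -0.046, -0.012, -0.025, -0.013 and -0.0094. With 5 rats per group, their number limits the precision.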

Additional observations from a re-analysis of the deposited data

Results flagged for a closer look

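Of 44 groups of 5 rats (the 9 subunits and the partner genes named), 5 held a rat far from the others by Dixon's ratio, and chance alone gives about 1 group in 20. Gria3 was at 11.75 in FS replicate 2, against 11.79 in the next FS rat. Grik1 was at 7.82 in control replicate 5, against 8.03 in the next control. Grik5 was at 10.58 in FS replicate 3, against 10.46 in the next FS rat. Grid1 was at 10.46 in the same rat, the lowest FS rat, against 10.55. Olfm3 was at 9.93 in control replicate 5, against 10.34 in the next control.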

How the results depend on the processing

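Across all alternatives other than the permutation test, 0 subunits passed an adjusted p of 0.05 in limma, with a smallest adjusted p of 0.346 (Grik2). Of 207 values of subunits under the alternatives, 195 kept their sign. The filters, the prior, the block and the permutation test cannot change a difference of means, so part of this count was fixed in advance. The same holds for the mean of probe sets in subunits with 1 probe set. With quantile normalization, all 5 kainate differences stayed negative but were smaller in size than in the main fit. They were -0.0020 for Grik1, -0.057 for Grik2, -0.060 for Grik3, -0.029 for Grik4 and -0.0044 for Grik5. Gria2 was positive with centred arrays (0.0049), without FS replicate 2 and control replicate 5 together (0.0049) and with the choroid plexus mean as a covariate (0.0034), and Gria3 negative as the mean of its probe sets (-0.0053). With the same covariate for choroid plexus, Grik1 (0.024) and Grik5 (0.0049) were positive, and 4 members and 3 kainate subunits were negative. That covariate and the joint omission of both rats were chosen after seeing the data. With each rat left out in turn, the differences ran from -0.018 to 0.0056 for Gria2, -0.074 to 0.028 for Grik1, -0.039 to 0.0013 for Grik5, -0.016 to 0.075 for Porcn and -0.050 to 0.014 for C1ql2. Counts ran from 0 to 1 for subunits at an unadjusted p under 0.05, 4 to 7 for subunits and 3 to 5 for kainate subunits with a negative difference, 0 to 1 (without control replicate 2) for probe sets at an adjusted p of 0.05 and 2 (without FS replicate 4) to 7 (without control replicate 3) for partner genes at an unadjusted p under 0.05. This last count was 1 without FS replicate 2 and control replicate 5 together. Probe sets at an unadjusted p under 0.05 numbered 1802 over all rats. Leaving out 1 rat moved this background from 1333 (without FS replicate 4) to 2589 (without control replicate 5). The fit with 2 partner genes thus had the lowest background. Grik2 was under 0.05 in the fit with the highest, and a subunit also was without FS replicate 1 (Grik2) or FS replicate 3 (Grik3). Same-numbered rats correlated over 0.1 in 2 of 5 pairs. Rats of different numbers were not compared, so these values cannot show or exclude a pairing. The replicate number as a block left 0 subunits called, moved the unadjusted p of Grik2 to 0.108 and gave 5 partner genes at an unadjusted p under 0.05 and 1803 probe sets in place of 1802. The cause of these changes was not tested.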
